A study of Mus musculus with 18 samples.

Results

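The 10 genes described here are astrocyte genes of glutamate uptake, ion and water homeostasis and the cytoskeleton: Slc1a2, Slc1a3, Glul, Kcnj10, Aqp4, Gja1, Gjb6, Aldh1l1, Gfap and Vim. They were chosen by symbol, and each symbol matched 1 Ensembl identifier among the 55421 genes of the count table. Astrocytes are the support cells of the brain. At the synapse they take up released glutamate through the transporters GLT-1 and GLAST and convert it to glutamine with glutamine synthetase. They also take up the potassium that active neurons release, pass water through channels at their endfeet on blood vessels, and share small molecules through gap junctions. Intermediate filament genes such as Gfap are commonly read as a sign of astrocyte reactivity, and loss of astrocytic glutamate and potassium uptake has been studied in mouse models of Huntington's disease.

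The striatum of 18 mice, 12 to 14 months old, was dissected for RNA-seq, and each mouse gave 1 library. There were 5 WT mice, 5 zQ175 mice, 3 CK2a'(+/-) mice and 5 zQ175:CK2a'(+/-) mice. zQ175 mice carry a knock-in of an expanded CAG repeat in the full-length mouse huntingtin gene and were heterozygous, so every cell type carries the expanded allele. CK2a'(+/-) mice lack 1 allele of CK2a', a catalytic subunit of the protein kinase CK2, in every cell, and zQ175:CK2a'(+/-) mice carry both changes. All libraries are labelled C57BL/6, and the study's methods say that the CK2a'(+/-) line, which came from a mixed background with 129/SvEv, had been bred onto C57BL/6J. The methods also give both sexes in unequal shares between the genotypes, and the labels give no sex for a library. All mice were perfused before the striatum was dissected. The comparison of zQ175 with zQ175:CK2a'(+/-) mice addresses whether loss of a CK2a' allele alters the transcriptome of the knock-in, and CK2a'(+/-) mice have no huntingtin knock-in.

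Total counts lay between 13612381 and 22702547 per library. Csnk2a2, the gene of CK2a', lay between 14.7 and 19.9 CPM in the 8 mice labelled with 1 allele and between 29.4 and 37.5 CPM in the other 10. CPM here is the count scaled to a common library size by edgeR's TMM method. Several libraries stood apart in genes of neighbouring tissue. The summed level of 6 choroid plexus markers, led by Ttr, was 2073 CPM in WT 1, 1727 CPM in WT 3, 976 CPM in CK2a'(+/-) 1 and 3085 CPM in zQ175:CK2a'(+/-) 2, and 21.7 CPM or less in the other 14 mice, with no marker of the list at 0 in every library. The summed level of 8 cortical excitatory neuron markers was highest in zQ175 5, at 390.1 CPM, and in zQ175 1, at 302 CPM, and lay between 87.9 and 215 CPM in the other mice. Results that rest on these libraries are also given without them. The tissue was bulk striatum, so fewer cells of a type and less RNA per cell cannot be told apart in any value below.

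The astrocyte genes were well measured. The lowest count of a member in any library was 197, for Gjb6, and the highest was 71890, for Slc1a2. Per kilobase of exon, Slc1a2 had the highest level of the 10, with a median of 183 CPM per kb over the 18 mice, and ranked 83 among the 20914 genes tested. Glul followed, with a median of 154 CPM per kb and a rank of 100. Gfap had a median of 43.7 CPM per kb, Slc1a3 of 30.3, Kcnj10 of 24.9, Aqp4 of 15.9 and Gja1 of 9.40. Aldh1l1, Gjb6 and Vim were the lowest, with medians of 6.36, 5.87 and 5.28 CPM per kb. Compared within each library, Glul lay above Gfap, Kcnj10 above Aqp4 and Aqp4 above Gja1 in 18 of 18 mice. Gja1 lay above Aldh1l1 in 17, Slc1a3 above Kcnj10 in 16 and Slc1a2 above Glul in 15 mice. The order was least settled between Aldh1l1 and Gjb6 (13 of 18), Gfap and Slc1a3 (12 of 18) and Gjb6 and Vim (10 of 18). Of the 10 genes, Gfap varied most between mice, 3.41-fold from the lowest to the highest library, and Slc1a3 varied least, 1.41-fold.

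The promoters of Glul and Gfap are printed because these genes, in turn, came closest to passing the test and varied most between mice. RefSeq promoter windows of 250 bases before and 50 after the start site, on GRCm38.p6, were found for 9 of the 10 genes, and Aqp4 had no entry. Glul is read from the forward strand at chr1:153899679-153899978 and Gfap from the reverse strand at chr11:102897151-102897450. Capitals mark the motifs that were found.
Glul: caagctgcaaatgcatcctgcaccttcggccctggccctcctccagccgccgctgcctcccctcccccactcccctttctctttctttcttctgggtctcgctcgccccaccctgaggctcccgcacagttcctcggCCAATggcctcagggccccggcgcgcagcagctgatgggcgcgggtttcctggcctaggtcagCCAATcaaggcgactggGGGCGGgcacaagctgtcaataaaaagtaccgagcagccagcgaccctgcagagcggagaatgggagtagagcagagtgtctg
Gfap: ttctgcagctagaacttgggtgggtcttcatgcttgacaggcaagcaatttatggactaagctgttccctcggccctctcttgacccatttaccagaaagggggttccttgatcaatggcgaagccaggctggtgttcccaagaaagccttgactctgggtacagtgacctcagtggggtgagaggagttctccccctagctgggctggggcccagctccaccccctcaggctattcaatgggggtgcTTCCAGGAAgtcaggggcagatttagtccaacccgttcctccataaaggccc
The motifs searched on both strands were the TATA box (TATAAA), the CCAAT box (CCAAT), the GC box (GGGCGG), a STAT element (TTCNNNGAA), an AP-1 element (TGANTCA) and the CRE (TGACGTCA). The letters of these motifs do not hold one another, and no window of these genes held a CRE. The Glul window held 2 CCAAT boxes, at -113 and -50 from the start site, and 1 GC box, at -33. CCAAT boxes are in 37.4% and GC boxes in 35.7% of the 32851 promoters in the table. The Gfap window held none of these and 1 STAT element that spans the start site, a motif found in 8.3% of promoters. The Slc1a3, Kcnj10 and Aldh1l1 windows held both a CCAAT and a GC box. Slc1a3 also had a TATA box, at -161, and a STAT element, at -96. The Vim window held a TATA box, at -32, and 2 CCAAT boxes, and TATA boxes are in 13.6% of promoters. The Gja1 window held an AP-1 element, as do 7.81% of promoters, and the Gjb6 and Slc1a2 windows held none of the motifs. A match is a run of letters and not a measured binding site.

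**Figure D1:**
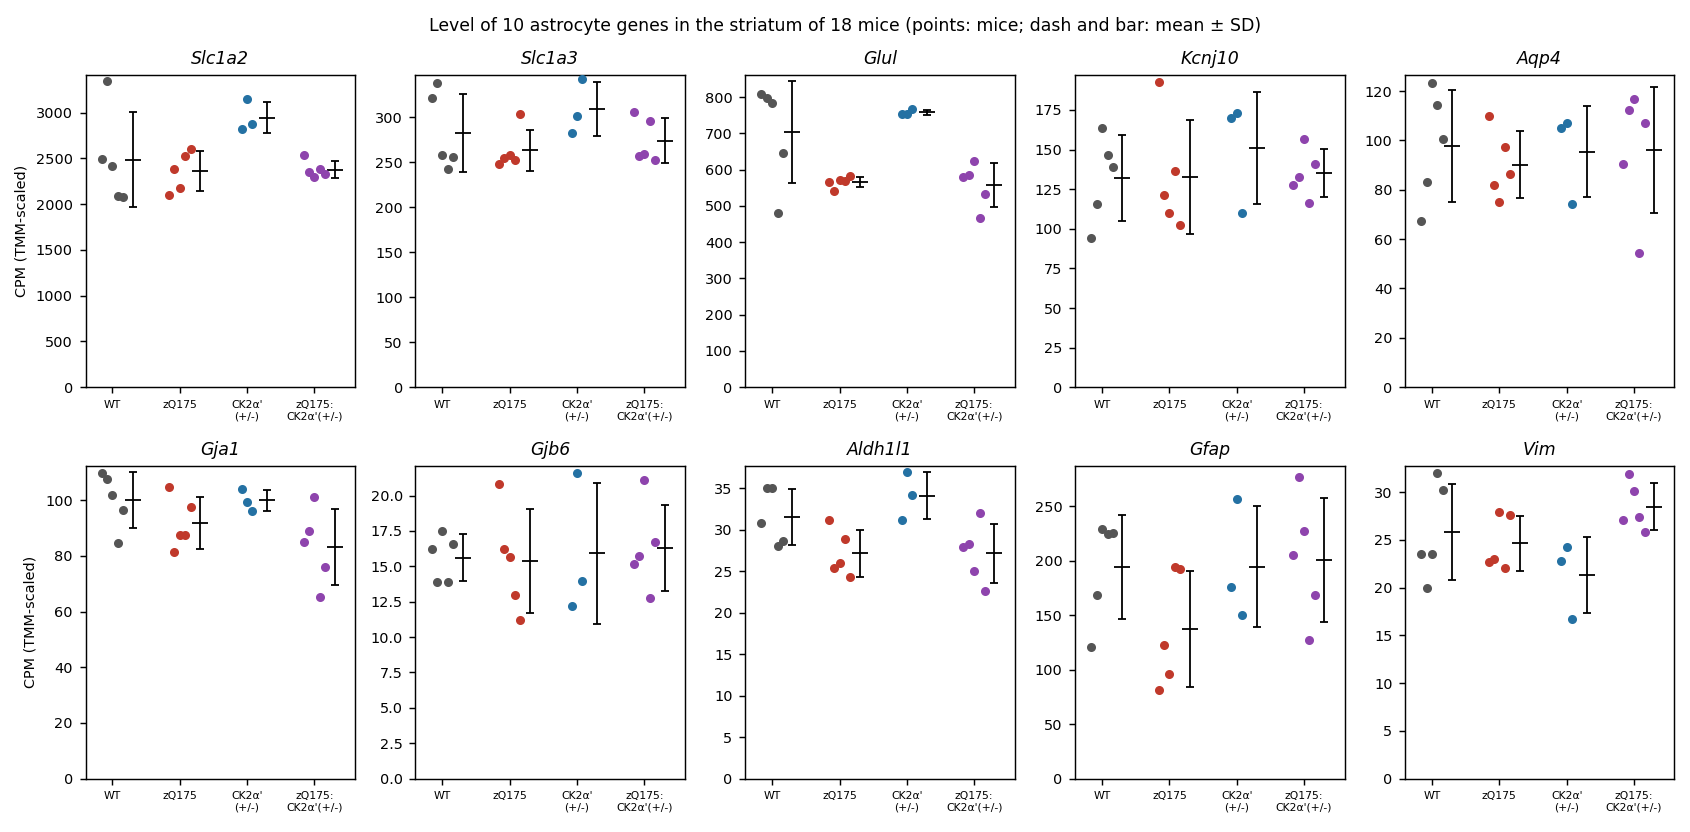
Level of each of the 10 astrocyte genes in CPM (vertical axes, from 0) in the 18 mice by genotype. Each point is 1 mouse, and the dash and bar to the right of the points are the mean and SD. The Glul panel has the 5 zQ175 mice between 542 and 583 CPM and 4 of 5 WT mice above them, and the Gfap panel has the widest spread.

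None of the 10 genes passed the test between zQ175 and WT mice (edgeR's quasi-likelihood test, Benjamini-Hochberg adjusted p or FDR under 0.1 over all genes tested). In this comparison 1.1% of the 20914 genes passed. DESeq2 also called none of the 10, and at an unadjusted p under 0.05 edgeR and DESeq2 each had 1 of them, against 13.9% of all genes in edgeR. The log2 fold change was negative for 9 of the 10, with a median of -0.11, and the median over all genes tested was 0.004. Over all genes it was negative for 10336 of 20914. Among the 9 genes, the sign of Slc1a2, Gjb6 and Vim turned when a single mouse was left out. No gene of the 10 separated the groups without overlap, which 2.44% of all genes did.

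Glul, which encodes glutamine synthetase, the enzyme that makes glutamine from glutamate and ammonia, was the member nearest to the threshold. Its level was 808, 796, 784, 480.5 and 645 CPM in the 5 WT mice and 566, 542, 572, 568 and 583 CPM in the 5 zQ175 mice. The zQ175 mice lay close together and below 4 of the WT mice, while WT 4 lay below all of them. The mean was 703 ± 141 CPM (SD, n = 5) in WT and 566 ± 14.9 CPM (SD, n = 5) in zQ175 mice. edgeR fitted a log2 fold change of -0.31 ± 0.11 (SE, FDR = 0.196). Without WT 4 it was -0.42 and Glul passed (FDR = 0.0353, edgeR), and without the 4 libraries high in choroid plexus markers it was -0.18 (FDR = 0.741, edgeR).

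Slc1a2 encodes GLT-1, the transporter that carries most glutamate uptake in the forebrain. Its level was 2497, 3348, 2415, 2094 and 2078 CPM in WT mice and 2097, 2386, 2176, 2527 and 2609 CPM in zQ175 mice. The zQ175 mice lay within the WT range, and WT 2 was the highest of all 18 mice. This gave a log2 fold change of -0.08 (95% interval -0.29 to 0.14, edgeR). Slc1a3 encodes GLAST, the related transporter, which is also strong in radial glia and cerebellar astrocytes. It was 321, 338, 258, 243 and 255 CPM in WT mice and 248, 255, 257, 252 and 303 CPM in zQ175 mice. Its log2 fold change was -0.10 (95% interval -0.31 to 0.10, edgeR). In both transporters 2 WT mice or fewer lay above the zQ175 range.

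The genes of potassium, water and gap junction function had small fitted differences between zQ175 and WT mice. Kcnj10 encodes Kir4.1, the inward rectifier that takes up potassium, and its mean was 132 ± 27.1 CPM (SD, n = 5) in WT and 133 ± 35.9 CPM (SD, n = 5) in zQ175 mice. The log2 fold change was 0.01 with a 95% interval of -0.33 to 0.35 (edgeR), and the value turned negative in several alternatives. The highest of all 18 mice, at 192 CPM, and the second lowest, at 102 CPM, were both zQ175 mice. Aqp4 encodes the water channel of the endfeet and was 67.3, 82.9, 123, 114 and 100.4 CPM in WT mice and 110.0, 82.0, 75.2, 97.3 and 86.5 CPM in zQ175 mice. Its log2 fold change was -0.11 with a 95% interval of -0.49 to 0.26 (edgeR) and a range of -0.24 to -0.016 when each mouse was left out, and the zQ175 mice lay within the WT range. Gja1 encodes connexin 43, the main astrocyte connexin, with a mean of 100.1 ± 10.1 CPM (SD, n = 5) in WT and 91.7 ± 9.34 CPM (SD, n = 5) in zQ175 mice. Gjb6 encodes connexin 30 and had means of 15.6 ± 1.63 CPM and 15.4 ± 3.66 CPM (SD, n = 5 each). Their log2 fold changes were -0.13 (95% interval -0.34 to 0.09, edgeR) for Gja1 and -0.02 (95% interval -0.38 to 0.34, edgeR) for Gjb6.

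Gfap, the intermediate filament of mature and reactive astrocytes, had the largest fitted difference of the 10 genes between zQ175 and WT mice, and it was lower in zQ175 mice. Its level was 121, 169, 229, 224 and 225 CPM in WT mice and 81.2, 123, 95.8, 194 and 192 CPM in zQ175 mice. In zQ175 1 and 3 it lay below the lowest WT mouse, and the other zQ175 mice lay within the WT range. edgeR gave Gfap a log2 fold change of -0.50 ± 0.24 (SE, FDR = 0.361). Vim, the filament shared with radial glia, endothelial and other cells, was 25.8 ± 5.07 CPM (SD, n = 5) in WT and 24.6 ± 2.85 CPM (SD, n = 5) in zQ175 mice. Aldh1l1, the folate enzyme used as a general astrocyte marker, was 30.8, 35.0, 35.1, 28.0 and 28.6 CPM in WT mice and 31.1, 25.4, 26.0, 28.9 and 24.3 CPM in zQ175 mice. The groups overlapped, and the log2 fold change was -0.21 ± 0.11 (SE, edgeR, FDR = 0.373).

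**Figure D2:**
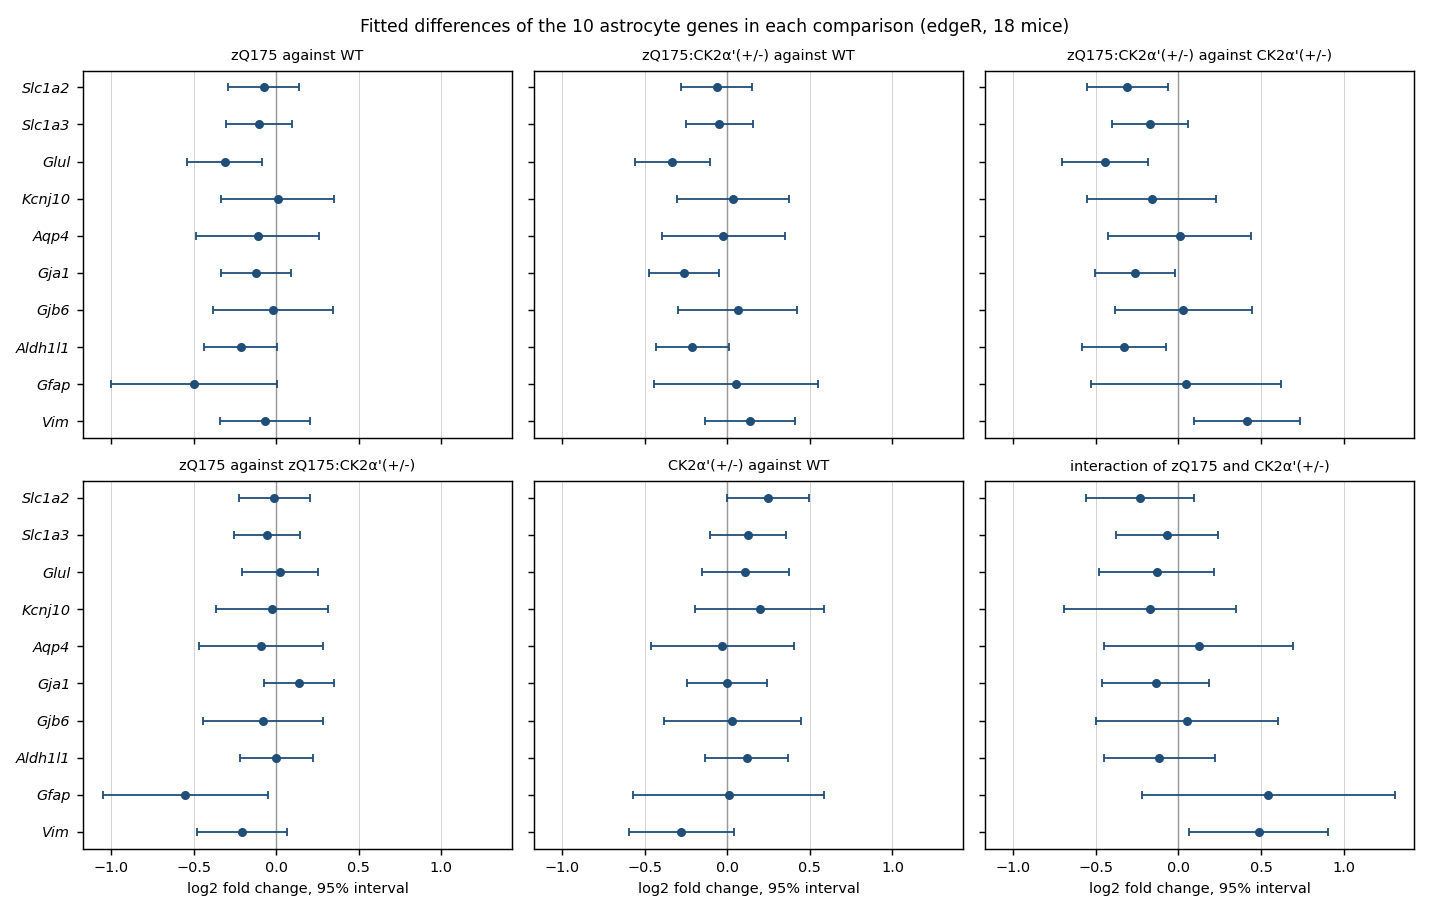
Fitted log2 fold change (horizontal axes) of each of the 10 genes in the 6 comparisons, with 95% intervals from edgeR's fit of all 18 mice. Glul lies left of 0 in the comparisons of either knock-in genotype with WT and of zQ175:CK2a'(+/-) with CK2a'(+/-) mice, and Gfap is near -0.5 in zQ175 mice against both WT and zQ175:CK2a'(+/-) mice.

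Between zQ175:CK2a'(+/-) and WT mice none of the 10 genes passed (edgeR, FDR under 0.1), and 0.0143% of all genes did. DESeq2 called none either, and 2 of the 10 had an unadjusted p under 0.05 in each tool, against 9.13% of all genes in edgeR. Glul was 578, 584, 625, 466 and 533 CPM in zQ175:CK2a'(+/-) mice, so that all 5 lay below 4 of the WT mice. Its log2 fold change was -0.33 ± 0.11 (SE, edgeR, FDR = 0.377), and without WT 4 it was -0.44 (edgeR, FDR = 0.0959). Without the 4 libraries high in choroid plexus markers it was -0.22, Glul did not pass, and 0 of the 10 genes had an unadjusted p under 0.05 in edgeR. Gja1 was 84.9, 88.9, 101, 65.2 and 76.0 CPM in zQ175:CK2a'(+/-) mice against 110, 107, 102, 84.6 and 96.5 CPM in WT mice. The lowest Gja1 values of the 18 mice were in zQ175:CK2a'(+/-) mice, but the groups overlapped, and the log2 fold change was -0.27 (edgeR, FDR = 0.433). Aldh1l1 had a log2 fold change of -0.21 (edgeR, FDR = 0.562) and Slc1a2 of -0.06 (edgeR, FDR = 0.916). Gfap was 205, 277, 227, 127 and 169 CPM in zQ175:CK2a'(+/-) mice and did not differ beyond the spread from WT, with a log2 fold change of 0.05 (95% interval -0.45 to 0.55, edgeR). Vim had a log2 fold change of 0.14 (95% interval -0.14 to 0.41, edgeR). This comparison and that of zQ175 with WT use the same 5 WT mice, so their values are not independent.

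The direct comparison of zQ175 with zQ175:CK2a'(+/-) mice passed none of the 10 genes by edgeR or DESeq2, and 0.0143% of all genes by edgeR. At an unadjusted p under 0.05 edgeR had 1 of the 10, Gfap, against 6.27% of all genes, and DESeq2 had none. The Gfap mean was 137 ± 53.1 CPM (SD, n = 5) in zQ175 and 201 ± 56.9 CPM (SD, n = 5) in zQ175:CK2a'(+/-) mice, with overlapping ranges. Gfap had a log2 fold change of -0.55 ± 0.24 (SE, edgeR, FDR = 0.739), and -0.41 without the libraries high in choroid plexus markers (FDR = 0.996, edgeR), where 0 of the 10 had an unadjusted p under 0.05. Vim was 24.6 ± 2.85 CPM in zQ175 and 28.4 ± 2.46 CPM in zQ175:CK2a'(+/-) mice (SD, n = 5 each), a log2 fold change of -0.21 (95% interval -0.48 to 0.07, edgeR). Gja1 had a log2 fold change of 0.14 (95% interval -0.07 to 0.35, edgeR). For the genes of glutamate uptake and glutamine synthesis the intervals held 0. They were -0.23 to 0.20 for Slc1a2 around a value of -0.01, -0.26 to 0.14 for Slc1a3 around -0.06 and -0.21 to 0.25 for Glul around 0.02 (edgeR, log2 fold change).

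Loss of 1 CK2a' allele without the knock-in left all 10 genes short of the threshold. Between CK2a'(+/-) and WT mice none passed by edgeR or DESeq2, and 0.0143% of all genes did by edgeR. At an unadjusted p under 0.05 edgeR had none of the 10 and DESeq2 had 1, against 4.48% of all genes in edgeR. Slc1a2 was 2819, 3145 and 2878 CPM in the 3 CK2a'(+/-) mice, above all WT mice except WT 2. The log2 fold change was 0.25 (95% interval -0.002 to 0.49, edgeR, FDR = 0.999). It was 0.38 without WT 2 (edgeR, FDR = 0.151), and between 0.19 and 0.28 without any other single mouse. Slc1a3 was 283, 302 and 342 CPM in CK2a'(+/-) mice, with a log2 fold change of 0.13 (95% interval -0.10 to 0.36, edgeR). Vim was 22.8, 24.2 and 16.8 CPM in CK2a'(+/-) mice, including the lowest of the 18 mice, with a log2 fold change of -0.28 (95% interval -0.60 to 0.04, edgeR), and of -0.13 without CK2a'(+/-) 3, the lowest mouse.

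The comparison of zQ175:CK2a'(+/-) with CK2a'(+/-) mice, which both lack a CK2a' allele and differ in the knock-in, had the most of the 10 genes at a low unadjusted p. None passed edgeR's FDR of 0.1, which 0.593% of all genes did, but 5 of the 10 (Glul, Slc1a2, Aldh1l1, Vim and Gja1) had an unadjusted p under 0.05, against 9.19% of all genes. That count was 2 without CK2a'(+/-) 2. It was 4 with the replicate block, with Xist as covariate or without the libraries high in choroid plexus markers. DESeq2 called 1, Glul, and 327 of the 20084 genes to which it gave an FDR. In 3 of the 10, Slc1a2, Glul and Vim, the groups did not overlap, and 8.34% of all genes had that pattern. Glul was 754, 753 and 766 CPM in the 3 CK2a'(+/-) mice, above the highest zQ175:CK2a'(+/-) mouse at 625 CPM. Between the groups its log2 fold change was -0.44 ± 0.13 (SE, edgeR, FDR = 0.161; DESeq2 FDR = 0.0607). Slc1a2 was 2533, 2348, 2300.3, 2389 and 2325 CPM in zQ175:CK2a'(+/-) mice, all below the 3 CK2a'(+/-) mice, a log2 fold change of -0.31 (edgeR, FDR = 0.389). When only these 2 groups were fitted, both Glul (FDR = 0.0238, edgeR) and Slc1a2 (FDR = 0.0307, edgeR) passed. Of all genes in that fit 461 of 18974 passed. In the fit of all groups neither gene passed with any single mouse left out (edgeR, lowest FDR 0.204 for Glul and 0.445 for Slc1a2). Slc1a3 had overlapping groups and a log2 fold change of -0.17 (95% interval -0.41 to 0.06, edgeR).

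Vim had the opposite sign in this comparison. It was 27.1, 31.9, 30.1, 27.3 and 25.8 CPM in zQ175:CK2a'(+/-) mice, all above the highest CK2a'(+/-) mouse at 24.2 CPM, and the log2 fold change was 0.41 (edgeR, FDR = 0.364). Aldh1l1 was 31.2, 36.9 and 34.2 CPM in CK2a'(+/-) mice and 27.9, 28.2, 25.0, 31.95 and 22.6 CPM in zQ175:CK2a'(+/-) mice, with a log2 fold change of -0.33 (edgeR, FDR = 0.359). Gja1 had a log2 fold change of -0.26 (edgeR, FDR = 0.488). The sum over 12 striatal projection neuron markers lay between 5353 and 7342 CPM in the 3 CK2a'(+/-) mice, against 3067 to 4261 CPM in zQ175:CK2a'(+/-) mice and 3251 to 7534 CPM in WT mice, and the part of this difference in the astrocyte values was not tested.

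Whether the knock-in effect differed with the CK2a' genotype was tested as an interaction. None of the 10 genes passed (edgeR, FDR under 0.1, 0.00478% of all genes), DESeq2 called none, and 1 of the 10, Vim, had an unadjusted p under 0.05 in edgeR, against 5.39% of all genes. DESeq2 also had 1 at that level. The Vim interaction was 0.49 ± 0.20 (SE, edgeR, FDR = 0.916). The order of its means, from high to low, was zQ175:CK2a'(+/-), WT, zQ175 and CK2a'(+/-). The interaction was 0.54 (95% interval -0.22 to 1.31, edgeR) for Gfap and -0.23 (95% interval -0.56 to 0.10, edgeR) for Slc1a2, all on the log2 scale.

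Over the 18 mice the 10 genes did not vary as a single set. The correlations below are Pearson r of log2 CPM, a description of points that share a library and its cell makeup. They pool the genotypes, so differences between group means enter them. Slc1a2 and Slc1a3 varied together (r = 0.78), as did Glul and Gja1 (r = 0.80). Kcnj10 and Aqp4, which both act at astrocyte endfeet, had r = 0.77. Taken around the group means, r for these pairs was 0.72, 0.76 and 0.80 in turn. These pairs did not form a common group, since Slc1a3 ran against Aqp4 (r = -0.57) and Kcnj10 (r = -0.52). Vim ran against Slc1a2 (r = -0.62), Slc1a3 (r = -0.55) and Glul (r = -0.56). Gfap had r = 0.55 with Aqp4 and 0.36 with Vim, and r of 0.21 and -0.05 with Slc1a2 and Slc1a3.

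**Figure D3:**
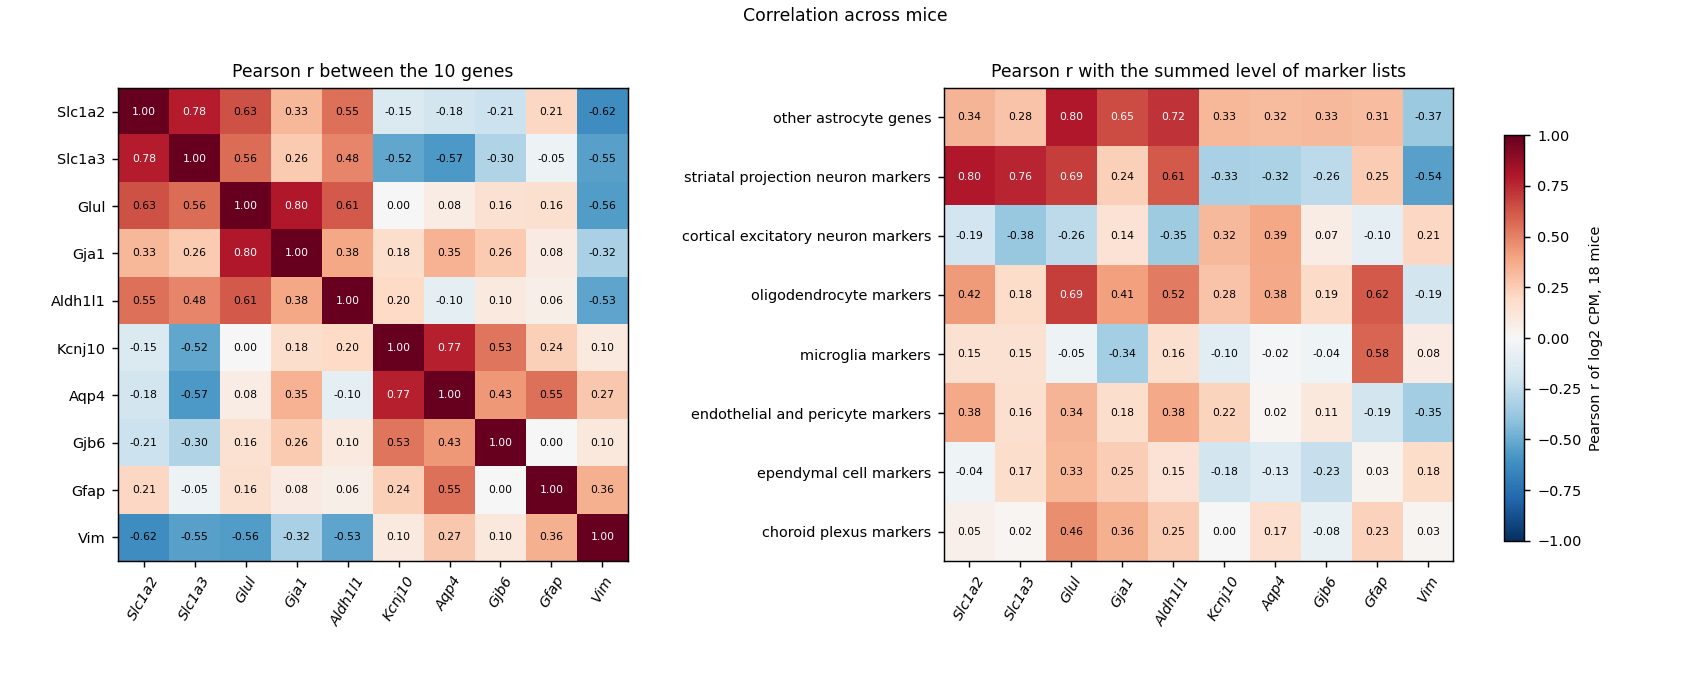
Pearson r of log2 CPM over 18 mice, between the 10 astrocyte genes (left) and with the summed level of 8 gene lists (right). Red is positive and blue negative, and each cell gives its r. Slc1a2 and Slc1a3 have r of 0.80 and 0.76 with the striatal projection neuron markers, and Glul has 0.80 with the other astrocyte genes.

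Both glutamate transporters had higher correlations with the striatal projection neuron markers than with other astrocyte genes. With the summed striatal projection neuron markers r was 0.80 for Slc1a2, 0.76 for Slc1a3 and 0.69 for Glul, and it was -0.33 for Kcnj10 and -0.32 for Aqp4. With the cortical excitatory neuron markers r was -0.19 for Slc1a2 and -0.38 for Slc1a3. With the summed level of 40 other astrocyte genes r was 0.34 for Slc1a2 and 0.28 for Slc1a3, and it was 0.80 for Glul, 0.72 for Aldh1l1 and 0.65 for Gja1. Glul and Gfap also varied with oligodendrocyte markers (r = 0.69 and 0.62), and Gfap with microglia markers (r = 0.58). Glul is known to be expressed in oligodendrocytes too. The genes tested whose pattern was most like Slc1a2 were Atp2b1, a calcium pump of the plasma membrane (r = 0.94), Rgs7bp, which binds RGS proteins (r = 0.91), and D430041D05Rik (r = 0.91). Those most like Slc1a3 were Rbfox1, a neuronal splicing factor (r = 0.88), Ppp3ca, a calcineurin subunit (r = 0.87), and Jph3, a junctophilin (r = 0.87).

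The genes most like the other members were of several kinds. For Glul they were Gipc2 (r = 0.90), Hrh3, a histamine receptor (r = 0.89), and Ankrd35 (r = 0.87). For Aldh1l1 they were Ndrg2 and Plpp3, both abundant in astrocytes (r = 0.85 each), and Il17rc, an interleukin receptor chain (r = 0.84). For Gja1 they were Igsf1 (r = 0.83), Igfbp5, a binding protein of insulin-like growth factors (r = 0.81), and Glul. Kcnj10 was most like Scrt1, a neuronal transcription factor, Edil3 and Vamp1, a synaptic vesicle protein (r = 0.90, 0.90 and 0.89). Aqp4 was most like Dip2a, Galnt1 and Hapln4, a link protein of the extracellular matrix (r = 0.89, 0.87 and 0.87). Gjb6 was most like Atf4, a stress response factor, Ankrd34c and Itih5 (r = 0.82, 0.75 and 0.75). For Gfap they were Tmem151a (r = 0.79), the complement gene C4b (r = 0.78) and Gsn, which encodes gelsolin (r = 0.78). For Vim they were Tuba1c, a tubulin (r = 0.87), Stk33 (r = 0.80) and Gm42486 (r = 0.79). Taken around the group means, r was lower for some, as for Aldh1l1 with Ndrg2 (0.69) and Glul with Ankrd35 (0.73). It was higher for others, as for Kcnj10 with Edil3 (0.92).

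Among 40 other astrocyte genes, 2 passed the test between zQ175 and WT mice and both were lower in zQ175 mice, against 0.712% of all genes that were lower. Apoe, the main lipid carrier of the brain, fell by 0.62 on the log2 scale (standard error 0.10, edgeR, FDR = 0.0442), from 1643 ± 221 to 1067 ± 128 CPM (SD, n = 5 each). Clu, which encodes clusterin, fell by 0.41 (standard error 0.09, edgeR, FDR = 0.0613), from 405 ± 49.7 to 304 ± 20.4 CPM (SD, n = 5 each). The claudin gene Cldn10 had a log2 fold change of -0.62 (edgeR, FDR = 0.104). The median log2 fold change of the 40 genes was -0.17. The count rested on single libraries: it was 0 without WT 3 or without zQ175 5, 1 without WT 1 or without zQ175 3, 3 without zQ175 1 and 4 without WT 2. Clu did not pass without WT 1, zQ175 1 or zQ175 3, nor with the replicate number as a block, where the count was 1 (Apoe). The count was also 0 without the 4 libraries high in choroid plexus markers, without zQ175 1 and 5 together, and when only these 2 groups were fitted. DESeq2 called 5 of the genes, 4 lower and 1, Nfib, higher, and edgeR with no filter called 4, of which Nfib was again higher. Over all genes DESeq2 called 847 of 16443, and edgeR with no filter 451 of 37580.

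**Figure D4:**
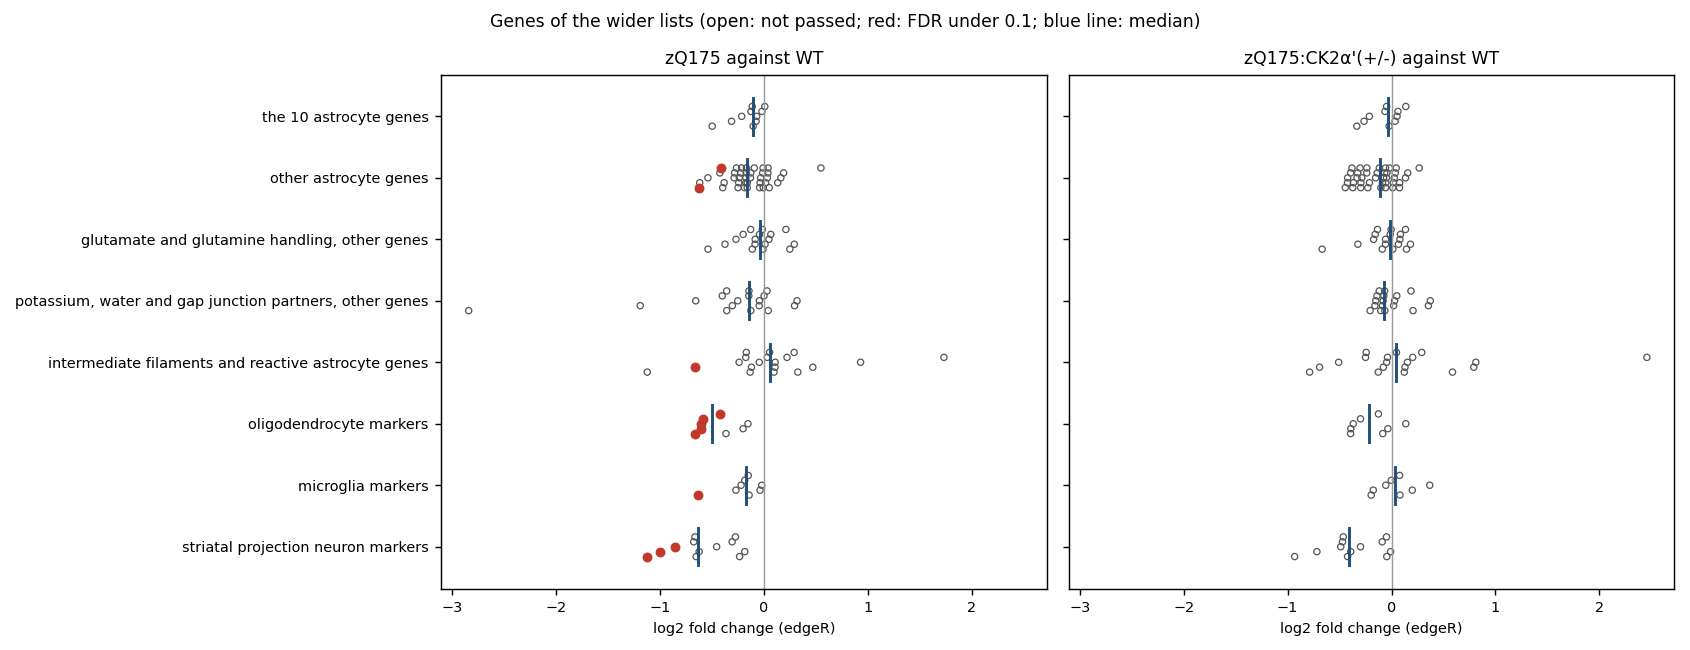
Log2 fold change (horizontal axes) of each gene of 8 lists, for zQ175 (left) and zQ175:CK2a'(+/-) mice (right) against WT. Open circles did not pass, red circles passed an FDR of 0.1 in edgeR, and the blue line is the list's median. In zQ175 mice the red circles all lie left of 0 and include 2 of the other astrocyte genes and 5 oligodendrocyte markers, and there is no red circle for zQ175:CK2a'(+/-) mice.

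None of the 17 other genes of glutamate and glutamine handling passed between zQ175 and WT mice in edgeR, and 1 had an unadjusted p under 0.05. In this comparison 1.1% of all genes passed and 13.9% had an unadjusted p under 0.05 (edgeR), the shares for the next lists too. The glutamine transporters Slc38a1 and Slc38a3 had log2 fold changes of 0.25 and -0.27 (edgeR, FDR = 0.387 and 0.406). Of 18 partners of potassium, water and gap junction function none passed and 4 had an unadjusted p under 0.05. Dmd, which encodes dystrophin, had a log2 fold change of 0.29 (edgeR, FDR = 0.17). Gjc3, a connexin of oligodendrocytes, had -0.36 (edgeR, FDR = 0.185). Of 13 genes of astrocyte calcium and adenosine signalling none passed and 2 had an unadjusted p under 0.05, the adenosine receptor Adora1 (0.19, edgeR, FDR = 0.307) and the ectonucleotidase Entpd2 (-0.56, edgeR, FDR = 0.311). Itpr2, the astrocytic receptor for inositol trisphosphate, had 0.16 (edgeR, FDR = 0.625).

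Of 20 intermediate filament and reactive astrocyte genes, 19 were tested and 1 passed between zQ175 and WT mice, against 1.1% of all genes. Cryab, a small heat shock protein gene that oligodendrocytes and astrocytes express, fell by 0.66 on the log2 scale (standard error 0.11, edgeR, FDR = 0.0442), from 90.7 ± 14.1 to 57.4 ± 8.36 CPM (SD, n = 5 each), and it no longer passed without WT 3, without zQ175 5, without zQ175 1 and 5 together, without the 4 libraries high in choroid plexus markers or when only these 2 groups were fitted. Serpina3n, a protease inhibitor used as a marker of reactive astrocytes, was 9.89 ± 3.01 CPM in WT and 18.8 ± 13.7 CPM in zQ175 mice (SD, n = 5 each), with a log2 fold change of 0.93 (edgeR, FDR = 0.352). Stat3, the transcription factor of the reactive response, had a log2 fold change of -0.17 (edgeR, FDR = 0.465). The median over the tested genes was 0.05.

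Between zQ175:CK2a'(+/-) and WT mice no gene of these astrocyte lists passed in edgeR. The 40 other astrocyte genes had a median log2 fold change of -0.11, against -0.009 over all genes tested. Of the 40 genes 8 had an unadjusted p under 0.05 (edgeR), against 9.13% of all genes. Between zQ175:CK2a'(+/-) and CK2a'(+/-) mice 1 of the 40 passed, against 0.368% of all genes that were lower. Ntsr2, the neurotensin receptor of astrocytes, was 86.3 ± 6.71 CPM (SD, n = 3) in CK2a'(+/-) and 61.5 ± 5.57 CPM (SD, n = 5) in zQ175:CK2a'(+/-) mice, and it fell by 0.49 on the log2 scale (standard error 0.11, edgeR, FDR = 0.0689). It still passed without zQ175:CK2a'(+/-) 4, and it did not pass without any other single mouse of these groups, without the libraries high in choroid plexus markers, with the replicate number as a block or with Xist as covariate. DESeq2 called 3 of the 40, all lower, and 327 of the 20084 genes to which it gave an FDR. The summed level of the 40 genes lay between 5296 and 5829 CPM in CK2a'(+/-) mice and between 4191 and 4718 CPM in zQ175:CK2a'(+/-) mice, without overlap. It lay between 4911 and 6124 CPM in WT and between 4151 and 4928 CPM in zQ175 mice.

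Some markers of other cell types also passed the test between zQ175 and WT mice. Of 8 oligodendrocyte markers 5 fell in zQ175 against WT mice (edgeR, FDR under 0.1), against 0.712% of all genes that were lower, among them Cldn11, Cnp, Mbp and Mobp, with log2 fold changes between -0.67 and -0.42. Their list's summed level was 5624 to 7715 CPM in WT and 3678 to 5513 CPM in zQ175 mice. Of 12 striatal projection neuron markers Adora2a, Penk and Ppp1r1b fell, with log2 fold changes of -1.12, -1.002 and -0.85 (edgeR, FDR = 0.0557, 0.061 and 0.0765). Of 8 microglia markers 1, C1qa, fell (edgeR, FDR = 0.0707). Of 8 cortical excitatory neuron markers 1, Tbr1, was higher (edgeR, FDR = 0.0902), and of 7 progenitor markers 1, Sox11, was higher (edgeR, FDR = 0.0838), against 0.387% of all genes that were higher. The log2 fold change was positive for all 8 cortical markers and for 4 of the 7 progenitor markers, whose median was 0.030 and whose lowest value was -0.84. Tbr1 still passed without WT 2, WT 4 or zQ175 1 and Sox11 without WT 2, WT 5 or zQ175 4, and neither passed without the libraries high in choroid plexus markers, without zQ175 1 and 5 together, or when only these groups were fitted. With the replicate block or Xist as covariate neither passed. None of the markers of oligodendrocyte precursors, endothelial cells and pericytes, ependymal cells, leptomeninges and choroid plexus passed. Of 6 choroid plexus markers 3 had an unadjusted p under 0.05 (edgeR), against 13.9% of all genes. The counts of oligodendrocyte, projection neuron and microglia markers that passed were 5, 3 and 1. They were 0, 0 and 0 without WT 3, without zQ175 5, without zQ175 1 and 5 together, without the 4 libraries high in choroid plexus markers or when only these groups were fitted, 1, 0 and 0 without WT 1, and 2, 0 and 0 without zQ175 1. With the replicate block they were 3, 1 and 1. The projection neuron count was 0 with a robust fit, 7 with no filter, 2 without zQ175 3 and 6 without WT 5. With no filter 4 of the 8 cortical markers passed, all higher, and 451 of all 37580 genes passed. The microglia count was 0 without WT 5 or zQ175 3 and 2 without zQ175 4. Between zQ175:CK2a'(+/-) and CK2a'(+/-) mice 1 of 8 oligodendrocyte markers, Mobp, and 2 of 12 projection neuron markers, Adora2a and Penk, were lower, against 0.368% of all genes, and 1 of 7 progenitor markers, Sox11, was higher, against 0.225% (edgeR, FDR = 0.0989, 0.0733, 0.0989 and 0.0574). The log2 fold change was positive for 3 of the 8 oligodendrocyte markers, with a median of -0.18, and negative for 2 of the 7 progenitor markers, with a median of 0.019 and a lowest value of -0.95. Mobp and Penk did not pass when any single mouse of these groups was left out, and Adora2a passed only without zQ175:CK2a'(+/-) 1. None of these 3 passed with the replicate block or without the libraries high in choroid plexus markers. Sox11 passed without those libraries, and it did not with the replicate block or without CK2a'(+/-) 2, CK2a'(+/-) 3, zQ175:CK2a'(+/-) 2 or zQ175:CK2a'(+/-) 4. The part that these cell types have in the values of Glul, Gfap and the other astrocyte genes was not tested.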

How the data were processed

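Per the submitters' processing notes, reads were trimmed (Trimmomatic) and mapped to GRCm38 (HISAT2 2.1.0). The authors removed duplicates and poorly mapped reads, and deposited raw counts per gene from Subread 1.6.2, with the exon length of each gene in a column of other values. Whether counting used the strand is not given in the sources used here. Exons of other genes overlap Slc1a2, Glul and Aldh1l1 by at most 499 bases. Groups came from the labels, with 1 library per mouse. Symbols were matched through GENCODE identifiers of the same build, and older symbols through RefSeq.

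The deposited counts entered edgeR 4.0.16 under R 4.3.3 (TMM, filterByExpr, quasi-likelihood test, all 18 libraries, genotype as the only factor). A gene passed at FDR under 0.1 over the 20914 genes tested. Intervals are 95%, and log2 CPM used a prior count of 2. The scripts were tested on simulated data. The members and lists were chosen with earlier results of these data known. Named are all 10 genes, list genes that passed in any comparison, at most 3 further genes per list by lowest p in zQ175 against WT, the 3 genes most like each member, and Csnk2a2. For marker lists of other cell types only genes that passed are named. Some genes that the rule would name are not reported here. Alternatives were DESeq2 1.42.0, RLE and upper-quartile scaling, no filter, at least 10 counts in 10% of libraries, a robust fit, FDR 0.05, only the groups compared, a replicate block, Xist as covariate and leaving out each mouse. Leaving out the libraries high in choroid plexus or cortical markers was added after the values were seen. Replicate numbers did not pair the mice.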

Additional observations from a re-analysis of the deposited data

Results flagged for a closer look

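Slc1a3 in zQ175 5 stood apart from its group. It was 303 CPM there and between 248 and 257 CPM in the other 4 zQ175 mice, a gap larger than Dixon's 95% limit for 5 values. This was 1 of 30 checks over the 10 genes in the 3 groups of 5 mice, and chance alone marks about 1 in 20 such groups. The same library had the highest summed cortical excitatory neuron markers, 390.1 CPM, and the part of that in the Slc1a3 value was not tested. Without zQ175 1 and 5 the log2 fold change of Slc1a3 against WT was -0.15 (edgeR, FDR = 0.675).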

How the results depend on the processing

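The number of the 10 genes that passed changed in zQ175:CK2a'(+/-) against CK2a'(+/-) mice, from 0 to 1 with no filter (Glul), 1 with DESeq2 (Glul) and 2 when only the groups compared were fitted (Slc1a2 and Glul). Leaving out each mouse gave 0 to 1 in zQ175 and in zQ175:CK2a'(+/-) mice against WT, with Glul passing only without WT 4, and 0 in the other comparisons. The other alternatives kept 0, including the 2 that left out libraries, which were chosen after seeing the data. Calls over all genes for zQ175 against WT were 230 here, 847 with DESeq2, 451 with no filter, 51 at FDR 0.05, 0 when only the groups compared were fitted, 1 without the 4 libraries high in choroid plexus markers, and 0 to 587 when each mouse was left out. They were 0 without WT 3 or zQ175 5. For zQ175:CK2a'(+/-) against CK2a'(+/-) mice they were 124, 327 with DESeq2, 297 with no filter, 461 with only the groups compared, 75 with Xist as covariate, 27 at FDR 0.05, 14 without the choroid plexus libraries, 12 with the replicate block, and 6 to 48 when each mouse was left out.

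Of the printed fold changes, the sign turned for Kcnj10 in zQ175 against WT, at -0.0097 with the replicate block, -0.0060 with Xist as covariate, -0.014 without the choroid plexus libraries and -0.11 without zQ175 1 and 5. It also turned without the choroid plexus libraries for Gjb6 in zQ175 against WT (0.057) and for Gfap in zQ175:CK2a'(+/-) against WT (-0.18). Of those not printed, none of which passed, it turned in at least 1 alternative other than leaving out a single mouse for Aldh1l1 in zQ175 against zQ175:CK2a'(+/-) mice, for Gja1, Gjb6 and Gfap in CK2a'(+/-) against WT, for Gjb6 and Gfap in zQ175:CK2a'(+/-) against CK2a'(+/-) mice, and for Gjb6 in the interaction. With each mouse left out the log2 fold change against WT ranged, in zQ175 mice, from -0.13 to 0.042 for Slc1a2, -0.17 to 0.097 for Kcnj10, -0.16 to 0.073 for Gjb6 and -0.16 to 0.019 for Vim. In zQ175:CK2a'(+/-) mice it ranged from -0.12 to 0.053 for Slc1a2 and -0.095 to 0.18 for Gfap. In zQ175 against zQ175:CK2a'(+/-) mice it ranged from -0.054 to 0.025 for Slc1a2 and -0.035 to 0.064 for Glul. Other printed values kept their sign and moved by over 1.5 times when 1 mouse was left out. In zQ175 against WT these were Slc1a3 (-0.16 to -0.045) and Aqp4 (-0.24 to -0.016), in zQ175:CK2a'(+/-) against WT Vim (0.044 to 0.23), in CK2a'(+/-) against WT Slc1a2 (0.19 to 0.38), Slc1a3 (0.048 to 0.20) and Vim (-0.38 to -0.13), in zQ175 against zQ175:CK2a'(+/-) mice Slc1a3 (-0.12 to -0.017) and Gja1 (0.063 to 0.22), in zQ175:CK2a'(+/-) against CK2a'(+/-) mice Slc1a3 (-0.23 to -0.095) and Vim (0.27 to 0.52), and in the interaction Slc1a2 (-0.37 to -0.17). Of the 60 fitted values of the 10 genes in the 6 comparisons, leaving out 1 mouse turned the sign of 27, of which 19 are not printed, and moved 18 others by over 1.5 times. The causes were not tested.

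Same-numbered mice did not deviate together, since the correlation of their deviations from the group means lay between -0.14 and 0.12 over 24 pairs and was over 0.1 in 2. The numbers therefore only name the mice. With the replicate block 0 of the 10 genes passed in each comparison, and the calls over all genes in zQ175 against WT went from 230 to 98. In 2 cases a mouse correlated best with its own number. The lowest count of a member in a library was 197.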
